A study of Mus musculus with 149 samples.

Results

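Thymic stromal lymphopoietin (TSLP) was given at 1500 ng to OVA-sensitized BALB/c mice, and whole lungs were taken 6 h later for gene expression on Affymetrix arrays. OVA is the usual abbreviation of ovalbumin, an egg protein used to make mice allergic. The 8 arrays of these animals were compared with the 8 arrays of OVA-sensitized BALB/c mice that received saline and were also killed at 6 h. All arrays whose labels named these sensitizations, challenges and times were used, 16 of the 149 arrays of the series, 1 array per animal. The label of the saline animals names no carrier. A separate group received buffer alone, labelled 0.1% MSA, an abbreviation the labels do not expand. That group (8 arrays, OVA-sensitized, 6 h) is set beside the leading results, together with OVA-sensitized mice given 150 ng (7 arrays) or 500 ng TSLP (8 arrays) at 6 h. Naive BALB/c mice given saline or 1500 ng TSLP and killed at 6 h (8 arrays each) and OVA-sensitized mice given saline or 1500 ng TSLP and killed at 24 h (7 arrays each) served for tests of whether the change differed. The labels give neither the age of the animals, the route of challenge nor the interval since sensitization, and whether saline animals also received OVA again is not stated.

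TSLP is a cytokine made mainly by epithelial cells that face the outside, such as those of the airway. It binds a receptor made of Crlf2 and the interleukin 7 receptor chain Il7r, which signals through Jak1 and Jak2 to Stat5. Dendritic cells, group 2 innate lymphoid cells, basophils, mast cells and T cells carry this receptor, and TSLP is known for promoting the type 2 cytokines Il4, Il5 and Il13 in allergic airway disease.

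The promoter stretches of 4 genes that the comparison turns on are shown because Cish is a textbook target of Stat5, and because Tnfaip6, Il13 and the basophil protease Mcpt8 are among the immune genes that rose in both fits described below. They are RefSeq sequences of the mouse build GRCm38.p6, written 5′ to 3′ on the strand of the gene, with bases counted from 1 at the first transcribed base. Capitals in Cish and Tnfaip6 mark the Stat motif TTCNNNGAA. Capitals in Il13 mark the GATA motif AGATAA.
Cish: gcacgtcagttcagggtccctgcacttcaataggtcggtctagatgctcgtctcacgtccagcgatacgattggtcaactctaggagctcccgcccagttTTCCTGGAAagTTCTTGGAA
Tnfaip6: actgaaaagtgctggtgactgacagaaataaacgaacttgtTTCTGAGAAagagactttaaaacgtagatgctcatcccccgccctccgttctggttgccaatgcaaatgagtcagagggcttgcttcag
Il13: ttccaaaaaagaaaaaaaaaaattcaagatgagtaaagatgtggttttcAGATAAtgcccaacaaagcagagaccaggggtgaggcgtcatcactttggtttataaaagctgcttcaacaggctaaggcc
Mcpt8: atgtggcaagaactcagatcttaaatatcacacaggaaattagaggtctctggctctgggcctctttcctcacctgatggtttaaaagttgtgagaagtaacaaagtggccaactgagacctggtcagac
The Cish stretch is chr9:107296559-107296678 on the plus strand, from base -100 to base 20, and its 2 matches begin at bases 1 and 12. The Tnfaip6 stretch is chr2:52037863-52037992 on the plus strand, bases -250 to -121, with its match at base -209. The Il13 stretch is chr11:53634703-53634832 on the minus strand, bases -130 to -1, with its match at base -81. The Mcpt8 stretch is chr14:56085198-56085327 on the minus strand, bases -130 to -1, and held none of the motifs searched. Searched on both strands in windows of 300 bases were TTCNNNGAA, which 8.30% of 32851 promoters hold, the same letters with 1 more base in the middle, which 6.95% hold, and AGATAA or TGATAA, which 18.6% hold. At least 2 copies of TTCNNNGAA, as in Cish, occur in 0.457% of them. A match describes the letters and is no evidence of binding. Of the 133 genes named by rule, 97 had a promoter in the RefSeq table.

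Across the 13494 genes measured, 3379 were higher after 1500 ng TSLP than after saline and 4999 were lower at an adjusted p under 0.05, which is 62.1 percent of all genes, 25.0 percent higher and 37.0 percent lower. Of these genes, 132 rose and 90 fell by more than 2-fold. The median change over all genes was -0.05 on the log2 scale. The beta-actin control differed between the same arrays. Beta-actin has probe sets at the 3' and the 5' end of its transcript, and their log2 difference is larger where RNA is broken or labelled less far from the 3' end. It was 2.45 ± 0.22 (SD, n = 8) in the saline arrays, from 2.18 to 2.72, and 1.26 ± 0.12 (SD, n = 8) in the TSLP arrays, from 1.06 to 1.49. The groups did not overlap, and the difference of -1.19 (SE 0.09) had p = 0.000155 in a two-sided exact permutation test, the smallest that 8 against 8 arrays can give (adjusted p = 0.00124 over 16 such tests). Beside it, buffer arrays differed from saline by 0.13 (adjusted p = 0.462), 150 ng arrays by -0.16 (adjusted p = 0.351) and 500 ng arrays by -0.65 (adjusted p = 0.00249), each by the same exact test. The 3' minus middle difference of beta-actin ran from 0.62 to 0.78 in the 1500 ng arrays and from 1.06 to 1.39 in the saline arrays. These groups differed by -0.51 (SE 0.05, adjusted p = 0.00124, exact test), and 500 ng arrays differed from saline by -0.225 (adjusted p = 0.02735, exact test). The 3' minus 5' difference of pyruvate carboxylase differed by -0.04 (SE 0.10, adjusted p = 0.740, exact test) between the 1500 ng and saline arrays, and the 3' minus middle difference of transferrin receptor by 0.08 (SE 0.18, adjusted p = 0.740, exact test). Whether RNA quality set the beta-actin difference was not tested.

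**Figure D1:**
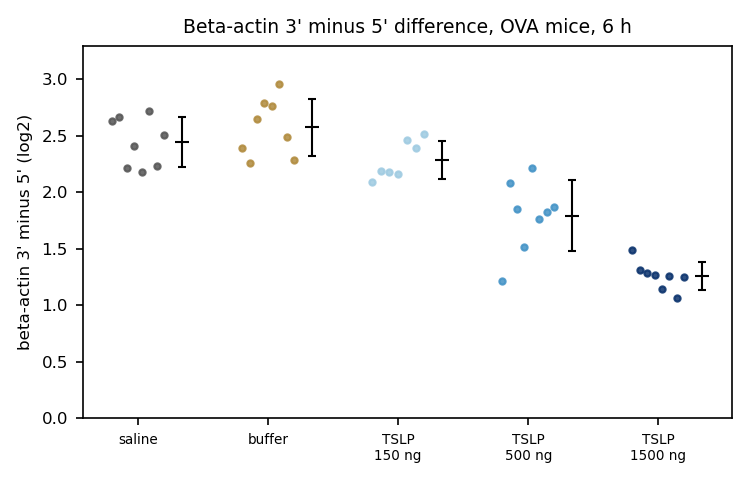
Difference between the 3' and 5' probe sets of beta-actin (log2, vertical axis) for each array of the OVA-sensitized groups killed at 6 h; points are animals and the bars beside them are the mean and SD. The 1500 ng arrays lie between 1.06 and 1.49, below all saline arrays, which lie between 2.18 and 2.72.

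The comparison was therefore also fitted with this beta-actin difference as a covariate, and the results below are given from both fits. For each gene given below as rising or falling against saline without the covariate, all 8 TSLP animals lay on that side of the saline mean, except 7 of 8 for Tslp, Il4, Ptgdr2, Cd200r3, Ccl3, Cd86, Cxcl11, Spdef, Bub1, Col1a1 and Myh11, 6 for Il5 and 5 for Ccr3. Because the groups do not overlap in it, the covariate fit rests on the slope within groups over all 149 arrays. With it, 1112 genes were higher (8.24 percent) and 1465 lower (10.9 percent). Of the genes called without the covariate, 999 rises and 1295 falls were also called with it in the same direction. Counts for the gene lists below stand against these shares, 25.0 percent higher and 37.0 percent lower without the covariate. The part of RNA quality in the calls that were lost was not tested. In a covariate fit on the 6 h arrays alone, added after the data were seen, Mcpt8, Kit, Tnfaip6, Aldh1a3, Il33 and Cish passed at 1.68, 0.60, 1.37, 2.25, 0.49 and 0.61, while Il13 (1.03, adjusted p = 0.105), Ccl11 (0.996, adjusted p = 0.14) and Cyp11a1 (0.58, adjusted p = 0.118) did not. Along the main axis of variation of the 16 arrays (48.6% of the variance), saline replicates 2 and 6 lay farthest from the TSLP arrays, at -45.3 and -38.8 against -25.2 or more in the other saline arrays, and they also had the highest beta-actin differences, 2.67 and 2.72. The TSLP array of replicate 7 carried keratins of gullet epithelium, with Krt13 at 13.55 against 6.05 or less in the other 15 arrays. Without the 6 arrays of the series that carry such keratins, 1 of them in these groups, 8470 genes were called. The lung label held: the surfactant gene Sftpc lay between 14.17 and 14.34 and the club cell gene Scgb1a1 between 14.22 and 14.48. The goblet cell gene Clca1 lay between 13.58 and 14.11 in the 16 sensitized animals against 4.72 to 7.80 in naive saline animals at 6 h.

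Cish, Jak1 and Stat3 rose in both fits, and the brightest probe sets of the receptor chains did not. Of 13 measured genes of the TSLP receptor and JAK-STAT5 pathway, 7 rose and 2 fell, with a median change of 0.16, and 3 rose in the covariate fit (median 0.08). Cish, an inhibitor of cytokine receptors that Stat5 induces, lay at 10.10, 10.43 and 11.05 (lowest, median and highest of the 8 animals, log2 expression, as for all genes below) after saline and at 10.95, 11.24 and 11.57 after TSLP. The ranges overlapped, with 2 saline animals above the lowest TSLP animal. Cish rose by 0.74 (SE 0.14, adjusted p = 3.50e-06) and by 0.56 (adjusted p = 0.0225) in the covariate fit. The Cish promoter above is the one with 2 Stat motifs. Socs2, another inhibitor induced by cytokines, went from 9.89 to 10.12 after saline to 10.32 to 10.91 after TSLP without overlap, a rise of 0.56 (SE 0.11, adjusted p = 3.20e-06) that did not pass in the covariate fit (0.26, adjusted p = 0.151).

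The kinase Jak1 lay between 10.87 and 11.39 after saline and between 11.46 and 11.81 after TSLP. Its rise of 0.46 (SE 0.06, adjusted p = 6.49e-11) passed in the covariate fit at 0.25 (adjusted p = 0.00946), although 1 of its 3 probe sets was lower (-0.20). Stat3 rose by 0.20 and passed in both fits, and Stat5a rose by 0.31 without the covariate. Stat5b rose by 0.24 (SE 0.05) on its brighter probe set and was at -0.50 (SE 0.10) on the dimmer one. The receptor chain Crlf2 fell by 0.21 (SE 0.06, adjusted p = 0.00316) and was at -0.06 in the covariate fit. Il7r was at 0.07 (SE 0.14, adjusted p = 0.668), while its dimmer probe set was at 0.95 (SE 0.19). Tslp itself lay between 10.15 and 11.02 after saline and at 10.35 in the median and 10.65 in the highest animal after TSLP. Its fall of 0.28 (SE 0.12, adjusted p = 0.028) was lost when any of saline replicates 1, 2, 7 and 8 or TSLP replicates 6 and 7 was left out (-0.26 to -0.23), and it was at 0.01 in the covariate fit. The feedback inhibitor Socs3 was at -0.18 (SE 0.13, adjusted p = 0.214).

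Il13 and its receptor chain Il13ra1 rose in both fits. Of 9 measured cytokines and receptors of this group, 6 rose and 1 fell, with a median of 0.40, and 2 rose in the covariate fit (median 0.32). Il13, the cytokine that drives mucus and airway narrowing, lay at 6.74, 7.50 and 8.92 after saline and at 8.24, 8.82 and 9.97 after TSLP. The ranges overlapped, with 2 saline animals above the lowest TSLP animal. Il13 rose by 1.24 (SE 0.30, adjusted p = 0.000204), which is 2.36-fold, and by 1.09 (adjusted p = 0.0383) in the covariate fit. Its receptor chain Il13ra1 rose by 0.69 (SE 0.09, adjusted p = 3.08e-10) without overlap and by 0.38 (adjusted p = 0.0133) in the covariate fit. Of the other 3 probe sets of Il13ra1, 1 was higher by 2.22, 1 was lower (-0.44) and 1 was at -0.005.

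Il5, the growth factor of eosinophils, lay at 5.41, 5.93 and 7.79 after saline and at 6.20, 6.69 and 8.22 after TSLP. The spread within both groups was wide, and 6 of the 8 TSLP animals lay above the saline mean. Its rise of 0.66 (SE 0.26, adjusted p = 0.0212) was lost without saline replicate 1 or 2 or TSLP replicate 4 or 6 (0.47 to 0.57), in a fit on the groups of the comparison alone (SE 0.37, adjusted p = 0.132), and in the covariate fit (0.54, adjusted p = 0.249). Il4, which switches T and B cells towards allergy, rose by 0.40 (SE 0.18, adjusted p = 0.0438). That call was lost when any 1 of 9 arrays was left out (0.29 to 0.40), namely saline replicates 1, 2, 5, 6 and 8 and TSLP replicates 1, 4, 5 and 6, in the fit on these groups alone (SE 0.26, adjusted p = 0.204), and in the covariate fit (0.32, adjusted p = 0.328). The decoy receptor Il13ra2 rose by 0.72 (SE 0.27, adjusted p = 0.0148), a call lost without saline replicate 1 or TSLP replicate 6 (0.57 and 0.60) and in the fit on these groups alone (adjusted p = 0.0649). Gata3, the transcription factor of type 2 lymphocytes, rose by 0.29. Stat6, which carries the signal of Il4 and Il13, fell by 0.34 (SE 0.05, adjusted p = 1.34e-09) on its brighter probe set. Its saline values of 12.61 to 12.77 lay above all TSLP values of 12.25 to 12.47. It was at -0.11 (adjusted p = 0.129) in the covariate fit. The dimmer probe set of Stat6 was at 0.09 (SE 0.07) without the covariate.

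Among 9 measured epithelial alarmin and innate lymphoid cell genes, 5 rose and 3 fell, and 2 rose in the covariate fit. The alarmin Il33, stored in nuclei of epithelial and stromal cells, lay at 11.50, 11.91 and 12.33 after saline and at 12.37, 12.54 and 12.87 after TSLP. All TSLP animals lay above all saline animals. Il33 rose by 0.66 (SE 0.12, adjusted p = 1.33e-06) and by 0.44 (adjusted p = 0.0323) in the covariate fit. Ptgdr2, the prostaglandin D2 receptor of type 2 cells, rose by 0.18 (SE 0.07) and by 0.26 (adjusted p = 0.0277) in the covariate fit. The innate lymphoid cell genes Il17rb and Klrg1 fell by 0.71 (SE 0.16) each and were at -0.26 and -0.38 in the covariate fit, where neither passed. Other members of the list went both ways, with Il2ra, Gata3 and Nmur1 at 0.46, 0.29 and 0.17 and Icos at -0.45. All of these passed without the covariate and none with it. The count of animals on each side of the saline mean is not given for Il2ra, Nmur1 and Icos. In whole lung, fewer cells of a type and less RNA per cell cannot be told apart.

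Mcpt8, Kit and Cyp11a1 rose in both fits. Of 14 measured basophil and mast cell genes 5 rose and 3 fell, and in the covariate fit 3 rose and 1 fell. Mcpt8, a protease made by basophils, lay at 7.85, 8.38 and 8.94 after saline and at 9.05, 10.19 and 10.61 after TSLP. The groups did not overlap. The rise of 1.63 (SE 0.21, adjusted p = 3.49e-11), or 3.08-fold, was 1.74 (adjusted p = 1.79e-05) in the covariate fit. Mcpt8 averaged 8.10 in buffer animals, 8.88 at 150 ng and 9.74 at 500 ng, as the plot of expression per array shows. Kit, the stem cell factor receptor of mast cells and of innate lymphoid cells, lay between 9.75 and 10.37 after saline and between 10.55 and 11.01 after TSLP, a rise of 0.85 (SE 0.12, adjusted p = 1.06e-09) and of 0.53 (adjusted p = 0.00904) in the covariate fit.

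Cyp11a1, which starts steroid synthesis from cholesterol, lay at 7.03, 7.31 and 7.92 after saline and at 7.43, 8.19 and 8.62 after TSLP. It rose by 0.66 (SE 0.17, adjusted p = 0.000335) and by 0.71 (adjusted p = 0.0147) in the covariate fit, while a dimmer probe set of the gene was at -0.41 (SE 0.13) and the mean of its probe sets did not pass (0.13, adjusted p = 0.340). The surface receptor Cd200r3 and the transcription factor Gata2, both found in basophils and mast cells, rose by 0.60 and 0.54, and neither passed in the covariate fit. Hdc, which makes histamine, fell by 0.38 (SE 0.07, adjusted p = 2.57e-07) and by 0.22 (adjusted p = 0.0484) in the covariate fit, while its dimmer probe set was higher by 0.24 and the mean of both did not pass (-0.07, adjusted p = 0.443). The IgE receptor chains Fcer1a and Ms4a2 and the mast cell proteases Cpa3, Tpsb2 and Mcpt4 did not pass.

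**Figure D2:**
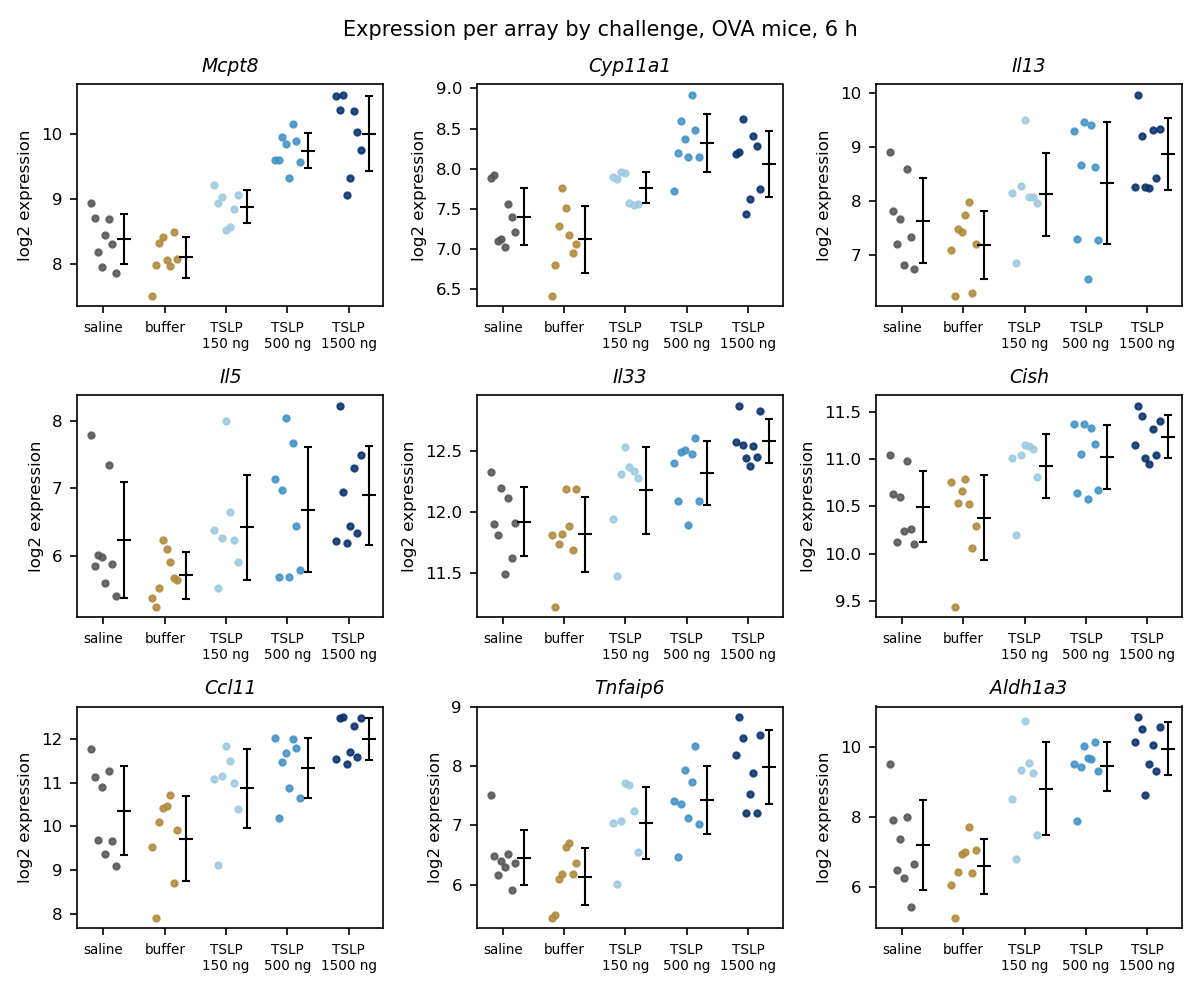
Expression (log2, vertical axes) of 9 genes in each OVA-sensitized animal killed at 6 h, by challenge; points are animals and the bars beside them are the mean and SD. The saline animals of Mcpt8 reach 8.94 and the 1500 ng animals start at 9.05, whereas the ranges of Il13 and Il5 overlap.

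Of 9 measured chemokines that draw eosinophils and monocytes, 5 rose, 4 did not pass and none fell, and Ccl11 alone rose in the covariate fit. Ccl11 (eotaxin) lay at 9.10, 10.29 and 11.79 after saline and at 11.42, 12.0045 and 12.52 after TSLP. A single saline animal reached the TSLP range. Ccl11 rose by 1.65 (SE 0.31, adjusted p = 2.37e-06), or 3.13-fold, and by 1.07 (adjusted p = 0.0453) in the covariate fit. The monocyte chemokine Ccl12 rose by 0.95 (SE 0.27), and Ccl3 and Ccl4 rose by 0.95 (SE 0.35) and 0.50 (SE 0.17), and these were at 0.78, 0.77 and 0.34 in the covariate fit, where none passed. The second eotaxin Ccl24 was at 0.16 (SE 0.36, adjusted p = 0.717). Of 6 eosinophil genes only the eotaxin receptor Ccr3 rose, by 0.64 (SE 0.29, adjusted p = 0.048), with 5 of 8 TSLP animals above the saline mean. It was at -0.03 in the covariate fit, and its call was lost without any 1 of 11 arrays (0.51 to 0.66), namely saline replicates 1, 2, 4, 5, 6 and 8 and TSLP replicates 3, 4, 5, 6 and 8. The granule gene Prg2 was at 0.35 (SE 0.30) and the surface lectin Siglecf at -0.15 (SE 0.17).

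Dendritic cell genes were mixed. Of 11 dendritic cell and MHC class II genes 6 rose and 1 fell (median 0.54), and 1 rose in the covariate fit (median 0.21). Zbtb46, the transcription factor of conventional dendritic cells, which endothelium also expresses, lay between 10.18 and 10.82 after saline and between 10.83 and 11.27 after TSLP. It rose by 0.66 (SE 0.10, adjusted p = 9.16e-09) and by 0.48 (adjusted p = 0.00598) in the covariate fit, although 1 of its 3 probe sets was lower (-0.36). The lectin Cd209a and the class II chain H2-Aa rose by 0.99 (SE 0.17) and 0.69 (SE 0.11) without overlap, and were at 0.46 and 0.21 in the covariate fit, where neither passed. Dimmer probe sets of H2-Aa were at 0.16 and 0.005 without the covariate. H2-Ab1, the partner chain of H2-Aa, fell by 0.17, and the invariant chain Cd74 was at -0.02. Of 10 dendritic cell chemokine and costimulation genes 2 rose and 1 fell. The inhibitory ligand Cd274 (PD-L1) lay between 8.83 and 10.31 after saline and between 10.37 and 10.95 after TSLP, and it rose by 1.04 (SE 0.14, adjusted p = 7.40e-11) and by 0.49 (adjusted p = 0.022) in the covariate fit. Ccl17, a chemokine that dendritic cells make under TSLP, lay at 11.23, 12.29 and 13.01 after saline and at 12.17, 12.81 and 13.25 after TSLP. It was at 0.59 (SE 0.31, adjusted p = 0.0841) and passed without saline replicate 3 or 4 (0.69 and 0.71). The costimulator Cd83 rose by 0.52 (SE 0.14). Cd86 fell by 0.31 (SE 0.12), a call lost without saline replicate 3 or 4 or TSLP replicate 2 (-0.27 to -0.26), its dimmer probe set was at 0.09, and the mean of both did not pass (-0.11, adjusted p = 0.437). Neither Cd83 nor Cd86 passed in the covariate fit.

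Of 17 neutrophil chemokine and acute inflammation genes 9 rose, 8 did not pass and none fell (median 0.45), and 2 rose in the covariate fit, the endothelial adhesion genes Vcam1 and Selp. Vcam1 lay at 10.28, 11.11 and 11.70 after saline and at 11.52, 11.74 and 11.96 after TSLP, and it rose by 0.78 (SE 0.13, adjusted p = 2.17e-07) and by 0.59 (adjusted p = 0.01) in the covariate fit. Selp rose by 0.76 (SE 0.20) and by 0.67 (adjusted p = 0.0499) with it. The cytokine Il1b rose by 0.93 (SE 0.21) and its antagonist Il1rn by 1.23 (SE 0.28), and they were at 0.37 and 0.40 in the covariate fit, where neither passed. Of 9 measured neutrophil genes, among them S100a8 and S100a9, none passed (median 0.22). Of 14 interferon response genes 4 rose and 1 fell. Ifit2 lay at 9.24, 9.56 and 9.84 after saline and at 9.73, 10.44 and 11.11 after TSLP, a rise of 0.89 (SE 0.12, adjusted p = 1.02e-10) and of 0.57 (adjusted p = 0.00442) in the covariate fit. The chemokines Cxcl10 and Cxcl11 rose by 1.03 (SE 0.33) and 1.06 (SE 0.34), and Mx2 fell by 0.39 (SE 0.13), a call lost without saline replicate 3 (-0.27). These 3 genes did not pass in the covariate fit.

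Genes of hyaluronan handling and early matrix response rose in 10 of 14 cases with 2 falls, against 25.0 percent higher and 37.0 percent lower among all genes. Their median was 0.59, and 0.23 in the covariate fit, where 3 rose. Tnfaip6, which loads proteins onto hyaluronan in inflamed tissue, lay at 5.91, 6.38 and 7.52 after saline and at 7.20, 8.03 and 8.83 after TSLP. A single saline animal, replicate 4 at 7.52, lay within the TSLP range. Tnfaip6 rose by 1.52 (SE 0.22, adjusted p = 1.56e-09), or 2.88-fold, and by 1.30 (adjusted p = 0.00117) in the covariate fit. Postn (periostin), a matrix protein that Il13 induces, lay between 11.87 and 12.39 after saline and between 12.50 and 12.77 after TSLP, a rise of 0.56 (SE 0.07, adjusted p = 1.45e-12) and of 0.26 (adjusted p = 0.00946) in the covariate fit. Plaur, the urokinase receptor, rose by 0.60 (SE 0.09) and by 0.32 (adjusted p = 0.033) with it. The hyaluronan synthase Has2, the hyaluronan receptor Cd44 and the matrix protein Thbs1 rose by 0.58 (SE 0.17), 0.71 (SE 0.12) and 1.47 (SE 0.25), and were at 0.57, 0.14 and 0.19 in the covariate fit, where none passed. The integrin chain Itga5 fell by 0.54 (SE 0.08), and was at -0.19 in the covariate fit, while 1 of its dimmer probe sets was higher by 0.57.

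The largest rise of the 13494 genes in this fit, predicted genes left out, was that of Aldh1a3, an enzyme that makes retinoic acid. It lay at 5.42, 7.02 and 9.51 after saline and at 8.62, 10.09 and 10.85 after TSLP. The saline animals were widely spread, and 1 of them reached into the TSLP range. Aldh1a3 rose by 2.74 (SE 0.43, adjusted p = 2.22e-08), or 6.68-fold, and by 2.16 (adjusted p = 0.00428) in the covariate fit. These values are of its brightest probe set. Dimmer probe sets of Aldh1a3 were higher by only 0.44 (SE 0.08) and 0.31 (SE 0.07) without the covariate. Of the 10 measured retinoic acid genes 4 rose and 1 fell. The receptor Rara rose by 0.32 (SE 0.06, adjusted p = 2.71e-06) and by 0.31 (adjusted p = 0.00432) in the covariate fit. Rdh10, which makes the precursor retinal, rose by 0.29 and Aldh1a2, another retinoic acid enzyme, fell by 0.51, neither in the covariate fit. Against buffer and without the covariate, 1 gene of this list was higher after the same dose of TSLP and 1 was lower (median 0.0065). At most 1 of the 4 rises was thus called there, and that of Aldh1a3 was larger against buffer than against saline.

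Most of the other large rises shrank in the covariate fit. Pfn1 and Cfl1, regulators of actin filaments, lay at 9.18 and 10.68 in the median saline animal and 11.15 and 12.16 in the median TSLP animal. They rose by 2.21 (SE 0.23) and 1.86 (SE 0.19) without overlap, and by 0.78 (adjusted p = 0.0102) and 0.48 (adjusted p = 0.0248) in the covariate fit. The chaperone Hyou1 rose by 2.15 (SE 0.23), Zfp40 by 2.01 (SE 0.22), the histone gene H2ac19 by 1.95 (SE 0.22) and R3hdm4 by 1.71 (SE 0.21). With the covariate these 4 genes were at 0.62, 0.61, 0.75 and 0.63 and passed. Without it, the dimmer probe sets of Hyou1 and Zfp40 were at 0.36 (SE 0.09) and 0.08 (SE 0.08). That of R3hdm4 was higher by 1.90. The transcription factor Elf4 (2.17), the chromatin protein Rbbp4 (2.09), Mapk1ip1l (1.69) and Rabac1 (1.69) did not overlap between the groups and lost their calls, at 0.47, 0.54, 0.45 and 0.41. The neutrophil chemokine Cxcl3 rose by 1.66 (SE 0.71, adjusted p = 0.0347) and was at 1.27 (adjusted p = 0.334) in the covariate fit. Its call was lost without saline replicate 5, 6 or 7 or TSLP replicate 3, 4 or 8 (1.43 to 1.60).

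**Figure D3:**
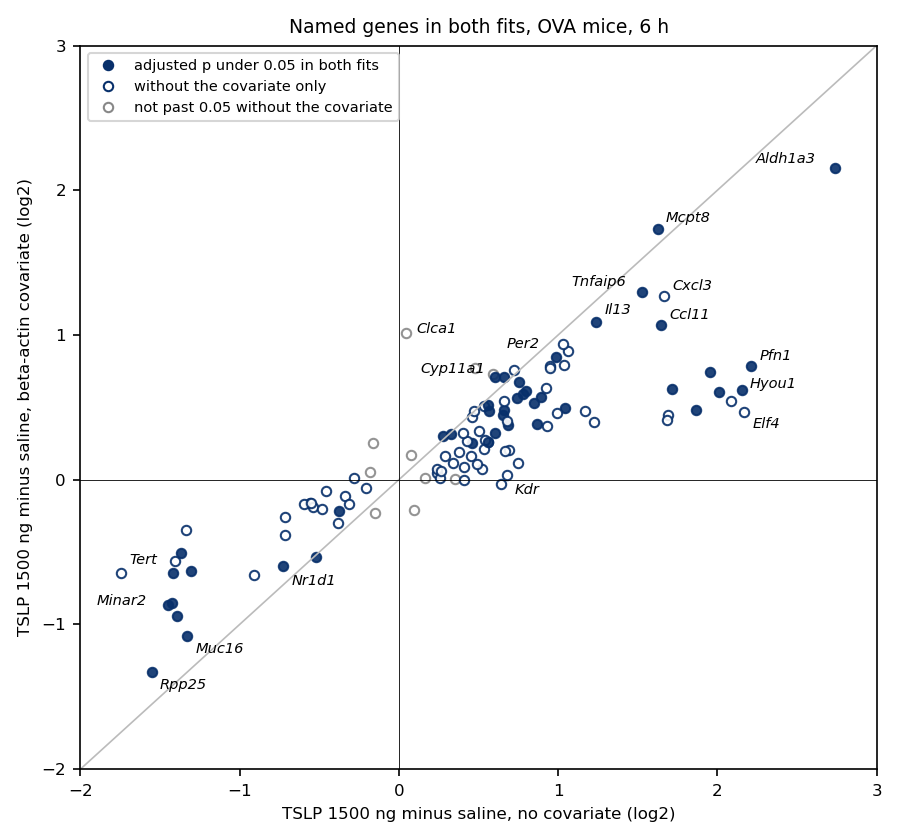
Change between TSLP 1500 ng and saline (log2) of the genes named for this comparison, without (horizontal) and with (vertical) the beta-actin covariate; each point is a gene and the grey line marks equal values. Mcpt8 lies just above the line, at 1.63 and 1.74, and Elf4 far below it, at 2.17 and 0.47.

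Among the falls, Rpp25, a subunit of ribonuclease P, kept most of its size. It lay at 6.96, 7.54 and 8.74 after saline and at 5.48, 6.14 and 6.90 after TSLP without overlap, a fall of 1.55 (SE 0.21, adjusted p = 2.44e-10), and was at -1.33 (adjusted p = 0.000609) in the covariate fit. Muc16, a cell surface mucin, lay between 9.69 and 11.07 after saline and between 8.34 and 9.38 after TSLP, and it was at -1.33 (SE 0.20) and at -1.08 (adjusted p = 0.0022) in the covariate fit. Rab17, a regulator of vesicle transport in epithelium, was at -1.39 (SE 0.17) and -0.94. Minar2 and Pm20d1 fell by 1.45 (SE 0.15) and 1.43 (SE 0.14) and were at -0.87 and -0.85. Hsd17b14 (-1.42), Mettl22 (-1.37) and Sema4f (-1.31) passed in the covariate fit at -0.65, -0.50 and -0.63. The telomerase gene Tert fell by 1.75 (SE 0.26), Bcan by 1.41 (SE 0.20) and Rasgrf1 by 1.34 (SE 0.17), and they lost their calls at -0.64, -0.56 and -0.35.

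Few goblet cell genes passed. Of 13 measured members 2 rose and 1 fell, and none passed in the covariate fit. Clca1 lay at 13.63, 13.80 and 14.11 after saline and at 13.58, 13.89 and 14.04 after TSLP, a difference of 0.04 (SE 0.62, adjusted p = 0.958). This SE pools all groups of the series. The gel-forming mucin Muc5ac was at -0.16 (SE 0.33, adjusted p = 0.688). Spdef, the transcription factor of goblet cells, rose by 0.47 (SE 0.21, adjusted p = 0.0468), a call lost without any 1 of 11 arrays (0.38 to 0.48), namely saline replicates 1, 2, 5, 6 and 7 and TSLP replicates 2, 3, 4, 5, 6 and 8. Fxyd4 rose by 1.03 (SE 0.43, adjusted p = 0.0295), a call lost without saline replicate 1, 2, 6 or 8 or TSLP replicate 1, 4 or 6 (0.79 to 0.97). The mucin glycosylation enzyme Gcnt3 fell by 0.91 (SE 0.34, adjusted p = 0.0142), a call lost without saline replicate 3 (-0.74) or without the gullet arrays (-0.76). Of 10 genes of alternatively activated macrophages 4 rose and 2 fell, and none passed in the covariate fit. The mannose receptor Mrc1 rose by 0.34 (SE 0.09), and the chitinase-like genes Chil3 and Chil4 did not pass.

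Of 11 glucocorticoid responsive genes 7 rose, 2 fell and 2 did not pass (median 0.43), and in the covariate fit 2 rose and 1 fell (median 0.31). The transcription factor Klf9 lay at 11.50, 11.87 and 12.18 after saline and at 12.24, 12.48 and 12.52 after TSLP. It rose by 0.56 (SE 0.08, adjusted p = 4.28e-09) and by 0.52 (adjusted p = 0.000733) in the covariate fit. Dimmer probe sets of Klf9 were at 0.82, 0.48, 0.23 and 0.07 (SE 0.09 for the last) without the covariate. The kinase Sgk1 rose by 0.56 (SE 0.09) without overlap and by 0.48 (adjusted p = 0.00349) in the covariate fit. Zbtb16 rose by 1.29 (SE 0.34), and its change in the covariate fit was 0.76 (adjusted p = 0.203). Zbtb16 stood at 1.01 (SE 0.34, adjusted p = 0.12) in buffer against saline, and at 1.23 (adjusted p = 0.035) in 150 ng against the same saline animals. Of 15 clock genes 6 rose and 2 fell. The repressor Per2 lay at 9.07, 9.53 and 9.99 after saline and at 10.17, 10.60 and 10.75 after TSLP. It rose by 0.99 (SE 0.21, adjusted p = 2.01e-05) and by 0.85 (adjusted p = 0.019) in the covariate fit. Dimmer probe sets of Per2 were at 0.42 (SE 0.20) and 0.26 (SE 0.09) without the covariate. Cry1, the partner of Per2, rose by 0.60 (SE 0.10) and by 0.71 (adjusted p = 0.000123) in the covariate fit. Nr1d1, a repressor of the opposite arm of the clock, fell by 0.73 (SE 0.17) and was at -0.60 (adjusted p = 0.0385) in the covariate fit. The hour of the day at which each group was killed is not given in the labels.

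Of 17 genes of endoplasmic reticulum folding and heat shock 9 rose and 1 fell. Dnajb9, a cochaperone of the secretory pathway, lay at 10.98, 11.25 and 11.56 after saline and at 11.91, 12.03 and 12.34 after TSLP, a rise of 0.80 (SE 0.09, adjusted p = 2.48e-13) and of 0.61 (adjusted p = 0.000264) in the covariate fit. The chaperones Hspa5 (0.41, SE 0.07) and Sdf2l1 (1.17, SE 0.20) rose and were at 0.09 and 0.47 with it, where neither passed. Of 15 immediate early genes 6 rose and 2 fell, Jun by 0.45 (SE 0.06) and Junb by 0.41 (SE 0.10) among the rises and Fosb by 0.52 (SE 0.14) among the falls. With the covariate none rose, and Jun and Junb were at 0.17 and -0.0009. Fosb fell in that fit too (-0.54, adjusted p = 0.0289), as did Ier2. Of 9 cell division genes 4 fell, a share near the 37.0 percent of all genes, and none rose (median -0.29), and none passed in the covariate fit. Mcm5, Mcm2 and Ccnb2 fell by 0.59 (SE 0.16), 0.46 (SE 0.13) and 0.55 (SE 0.19). The dimmer probe set of Mcm2 was at 0.03, and the mean of both did not pass (-0.21, adjusted p = 0.111). Bub1 was at -0.49 (SE 0.22), a call lost without any of 10 arrays (-0.50 to -0.38), namely saline replicates 2, 3, 4, 6 and 7 and TSLP replicates 1, 2, 3, 5 and 8.

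Most endothelial and stromal markers that rose lost their calls in the covariate fit. Of 12 endothelial genes 9 rose and 2 fell (median 0.47), and 1 rose in the covariate fit (median 0.04). Pecam1 lay between 9.39 and 10.42 after saline and between 10.63 and 10.94 after TSLP, a rise of 0.87 (SE 0.12) and of 0.38 (adjusted p = 0.0494) in the covariate fit. The receptors of vascular endothelial growth factor Kdr and Flt1 rose by 0.68 (SE 0.11) and 0.75 (SE 0.12) without overlap and were at 0.03 and 0.11 in the covariate fit. Dimmer probe sets of Flt1 were at 0.62, 0.04 and 0.07 without the covariate. Of 12 fibroblast and smooth muscle genes 9 rose and none fell (median 0.24), and 2 rose in the covariate fit, the collagen chain Col1a1 at 0.30 and the smooth muscle myosin Myh11. The smooth muscle gene Tagln rose by 0.67 (SE 0.10) without overlap and was at 0.20 with it. Against saline, lymphocyte markers went both ways, in shares near those of all genes. Of 10 T cell genes 2 rose and 3 fell, and of 8 cytotoxic and NK cell genes 2 rose and 2 fell. None of either list passed in the covariate fit. Against buffer and without the covariate, 5 T cell genes were higher after the same dose of TSLP and none was lower. Of the cytotoxic and NK cell genes, 5 were higher and 1 was lower against buffer. The mixed direction of these lists thus held for the saline reference only. The mean level of the T cell list ran from 8.66 to 9.49 in the saline animals and from 8.78 to 9.77 in the TSLP animals. Of tissues beside the lung, no member of the gullet, fat or thymus lists passed, and 1 of 13 heart and skeletal muscle genes did, the actin gene Actc1, which rose by 0.42. Mean levels of the gullet list ran from 6.18 to 6.71 after saline and from 6.15 to 11.96 after TSLP. Of 11 alveolar epithelial genes 5 rose and 4 fell, of 9 club and ciliated cell genes 2 rose and 3 fell, of 11 B and plasma cell genes 4 rose and 1 fell, of 10 alveolar macrophage genes 3 rose and 1 fell, of 9 monocyte and interstitial macrophage genes 2 rose and 2 fell, and of 5 red blood cell and platelet genes 1 rose and 1 fell. In the covariate fit the alveolar epithelial genes Abca3 and Ager, the B cell gene Pax5 and the monocyte receptor Cx3cr1 were lower, and no other gene of these 6 lists passed. The part of other cell types and tissues in the results was not tested beyond leaving out the gullet arrays.

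**Figure D4:**
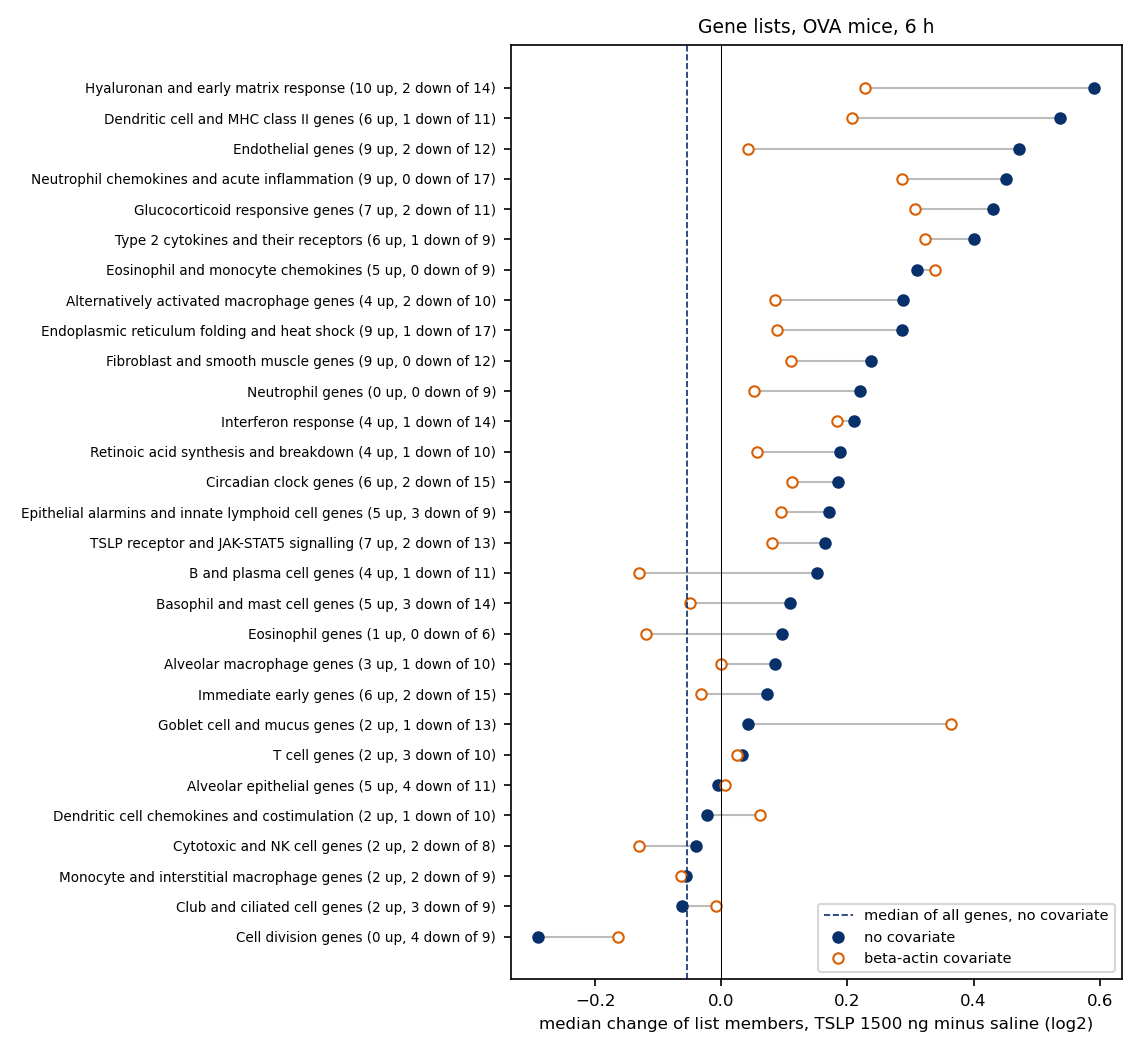
Median change of the measured members of 29 gene lists (log2, horizontal axis) between TSLP 1500 ng and saline, without (filled) and with (open) the beta-actin covariate; the counts beside the names are members that rose or fell without it, and the dashed line is the median of all genes, -0.05. Endothelial genes move from 0.47 to 0.04 and type 2 cytokines from 0.40 to 0.32.

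Few genes passed between buffer and saline. Buffer minus saline called 48 genes, 17 higher and 31 lower, or 0.356 percent of all genes, with the same saline arrays as reference. Leaving out 1 saline array moved the count to 3 (replicate 2), 7 (replicate 4), 23 (replicate 3 or 6), 77 (replicate 5), 160 (replicate 8) or 184 (replicate 7). The kinase Pak6 was higher by 0.55, Hif3a by 0.45, and Leng8 and the taste receptor gene Tas1r1 by 0.31 each. The cytotoxic granzyme Gzmb was at -0.67, Enpp3, a basophil ectoenzyme, at -0.64 and Tm4sf5 at -0.62. All 7 calls were lost without saline replicate 2, among them Leng8 (0.25, adjusted p = 0.0501), and all but that of Leng8 without replicate 4. Without replicate 3, Hif3a, Gzmb and Enpp3 lost their calls, without replicate 5 Enpp3, and without replicate 6 Pak6, Tas1r1 and Enpp3. Over these omissions Pak6 ran from 0.45 to 0.52, Hif3a from 0.39 to 0.42, Tas1r1 from 0.27 to 0.30, Gzmb from -0.67 to -0.56, Enpp3 from -0.64 to -0.55 and Tm4sf5 from -0.65 to -0.54. In the 1500 ng animals Pak6 and Leng8 were also higher than after saline, by 0.63 (SE 0.13) and 0.45 (SE 0.06). The leading genes of the TSLP comparison stood below saline in the buffer animals, none past the threshold: Mcpt8 at -0.28 (SE 0.21), Il13 at -0.45 (SE 0.30), Ccl11 at -0.64 (SE 0.31), Tnfaip6 at -0.32 (SE 0.22) and Aldh1a3 at -0.61 (SE 0.43). Against buffer, the 1500 ng animals differed by 1.91 for Mcpt8, 1.69 for Il13, 2.29 for Ccl11, 1.84 for Tnfaip6 and 3.35 for Aldh1a3.

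At 150 ng, where the beta-actin difference lay near that of saline, 158 genes were higher and 158 lower than after saline, 2.34 percent of all genes. This comparison was added after the data were seen, and it shares the saline arrays. Leaving out 1 saline array moved its count to 6 (replicate 2), 36 (replicate 6), 188 (replicate 1), 510 (replicate 8), 556 (replicate 5) or 737 (replicate 7), and it was 0 in a fit on the groups of the comparison alone, where 1580 genes had an unadjusted limma p under 0.05. Aldh1a3 was at 1.60 (SE 0.45, adjusted p = 0.0329) and Cry1 at 0.46 (adjusted p = 0.00845). Mcpt8 (0.50), Tnfaip6 (0.59), Il13 (0.49), Ccl11 (0.51), Cish (0.43) and Il33 (0.26) stood above saline without passing. Between 1500 and 150 ng, 6817 genes differed, or 50.5 percent. Higher at the larger dose were Mcpt8 by 1.13 (SE 0.22, adjusted p = 5.93e-06), Tnfaip6 by 0.94 (adjusted p = 0.000284), Ccl11 by 1.14 (adjusted p = 0.00194), Il33 by 0.40 (adjusted p = 0.00514), Aldh1a3 by 1.13 (adjusted p = 0.0269) and Il13 by 0.75 (adjusted p = 0.038). Cish differed by 0.32 (adjusted p = 0.0677) and Cyp11a1 by 0.30 (adjusted p = 0.144). The same arrays differed in beta-actin.

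Whether sensitization changed the response was tested against naive animals, which share no arrays with the OVA groups. The effect of 1500 ng over saline differed for 983 genes, 7.28 percent, and for 58 in the covariate fit. The count was 300 and 332 without saline replicate 2 or 6, 617 without saline replicate 3, 573 and 400 without TSLP replicate 6 or 4, and up to 1429 without saline replicate 4, or 1422 without saline replicate 5. Aldh1a3 was at 2.74 in OVA and 0.73 (SE 0.43) in naive animals, a difference of 2.01 (SE 0.61, adjusted p = 0.0325), which lost its call without saline replicate 2 or 6 or TSLP replicate 4 or 6 (1.76 to 1.92) and in the covariate fit (1.83, adjusted p = 0.105). Tnfaip6 was at 1.52 in OVA and 0.20 (SE 0.22) in naive animals, and the difference of 1.33 (SE 0.31, adjusted p = 0.00956) passed in the covariate fit (1.25, adjusted p = 0.0419), but neither in the fit on the groups of the comparison alone (adjusted p = 0.0616) nor with the covariate on the 6 h arrays alone (1.28, adjusted p = 0.133). Mcpt8 was at 1.63 and 1.35, a difference of 0.28 (SE 0.30, adjusted p = 0.592), and Cyp11a1 at 0.66 and 0.78, a difference of -0.12 (SE 0.24). For these basophil genes a difference between sensitized and naive mice was not detected. Il13 was at 1.24 and 0.10 (SE 0.30), and the difference of 1.14 (SE 0.43) had adjusted p = 0.0779. Ccl11 was at 1.65 and 0.65, a difference of 0.997 (SE 0.44, adjusted p = 0.134). The other large differences were Aass (1.06), Tnfrsf11b (0.98) and Myocd (0.95) upward and Itih1 (-1.05), Kif5c (-0.94), Serpina7 (-0.94), Slco1a5 (-0.92) and Muc16 (-0.87) downward. Of these, Itih1 and Kif5c passed in the covariate fit, at -0.97 (adjusted p = 0.0347) and -0.80 (adjusted p = 0.0495). In the fit on these groups alone Itih1 passed and the other 9 of these 10 genes did not, among them Kif5c and Myocd (adjusted p = 0.0522 each) and Serpina7 (adjusted p = 0.083). With the covariate on the 6 h arrays alone none of the 10 passed (adjusted p from 0.133 to 0.226). Leaving out single arrays ended several of these calls. That of Aass was lost without saline replicate 1, 2, 6 or 8 or TSLP replicate 1, 4, 5 or 6 (0.92 to 1.06), and that of Muc16 without saline replicate 2, 3, 6 or 7 or TSLP replicate 3, 4, 5, 6 or 8 (-0.90 to -0.74). Tnfrsf11b lost its call without saline replicate 2, 6 or 8 or TSLP replicate 4 or 6 (0.844 to 1.0036), Myocd without saline replicate 2 or 6 or TSLP replicate 4 or 6 (0.84 to 0.95), and Slco1a5 without saline replicate 2 or 6 or TSLP replicate 4 (-0.91 to -0.83). In naive mice the beta-actin difference was 2.42 ± 0.51 (SD, n = 8) after saline and 1.61 ± 0.26 (SD, n = 8) after 1500 ng.

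**Figure D5:**
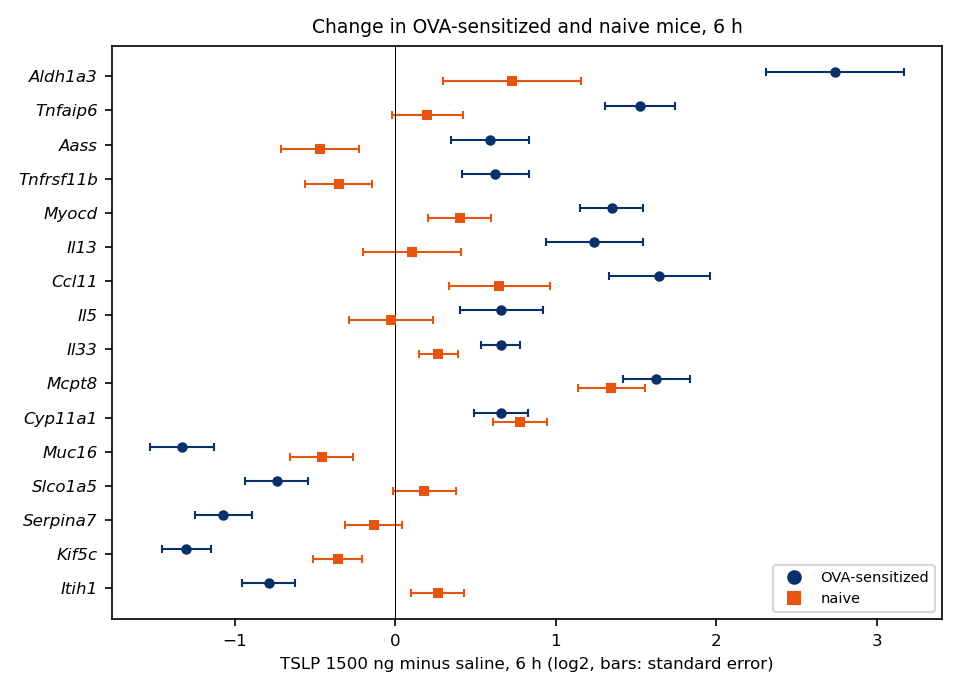
Change between TSLP 1500 ng and saline at 6 h (log2, horizontal axis) in OVA-sensitized (circles) and naive mice (squares), with standard errors of the limma fit, for 16 genes. Mcpt8 and Cyp11a1 have nearly the same change in both, while Tnfaip6 stands at 1.52 in sensitized and 0.20 in naive mice.

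Several of these changes were smaller at 24 h. The effects at 24 and 6 h differed for 8012 genes, 59.4 percent, and for 3562 in the covariate fit. Beta-actin 3' minus 5' was 1.27 ± 0.18 (SD, n = 7) after saline and 1.60 ± 0.23 (SD, n = 7) after TSLP at 24 h, the reverse order of that at 6 h. Mcpt8 was still higher at 24 h, by 0.71 (SE 0.22, adjusted p = 0.0107), and the effects at 24 and 6 h differed by -0.92 (SE 0.31, adjusted p = 0.00702), also in the covariate fit (-1.06, adjusted p = 0.0274). Cyp11a1 was higher by 0.68 (SE 0.18, adjusted p = 0.00194) at 24 h, and the effects at the 2 times differed by 0.02 (SE 0.24). Aldh1a3 was at 0.24 and Tnfaip6 at 0.18 at 24 h, and the effects at the 2 times differed by -2.50 (SE 0.63, adjusted p = 0.000345) for Aldh1a3 and by -1.35 (SE 0.32, adjusted p = 0.000155) for Tnfaip6. With the covariate Tnfaip6 passed (-1.05, adjusted p = 0.0365) and Aldh1a3 did not (-1.75, adjusted p = 0.0806). Ccl11 was at -0.05 at 24 h, a difference of -1.70 (SE 0.46, adjusted p = 0.000789) that did not pass in the covariate fit (-0.96, adjusted p = 0.197). Il13 was at 0.29 at 24 h, and the difference of -0.95 (SE 0.44) had adjusted p = 0.0573. Ccr3, Siglecf and Prg2, of 6 measured eosinophil genes, were at -1.86, -1.25 and -1.03 against saline at 24 h without the covariate. The other members are not given at 24 h, so these values do not describe the list as a whole. Rpp25 and Muc16, which fell at 6 h, were higher by 0.94 and 0.69 at 24 h, and the effects differed by 2.49 and 2.03, also in the covariate fit (2.20 and 1.71).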

How the data were processed

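Lung RNA of 149 mice in 20 groups of 6 to 8 was measured on Affymetrix arrays, per the labels' protocols after mirVana extraction (RIN greater than 6) and 3'IVT labelling of 100 ng. The authors deposited log2 values made with RMA, per the submitters' processing notes; no source used here gives the RMA settings. Array medians of the 16 arrays ran from 8.9951 to 9.0703. Of 26166 probe sets, 22892 had 1 gene symbol, 260 had several and 3014 were not listed in the platform annotation. For 22834 of the probe sets with 1 symbol, the gene identifier matched the RefSeq table. The brightest probe set with 1 symbol stood for each of 13494 genes.

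limma 3.58.1 (R 4.3.3) fitted 1 mean per group over all 149 arrays, and p-values were adjusted by Benjamini-Hochberg over all genes at 0.05. The members of the comparison and all gene lists were chosen with earlier results of these data known. Of 435 listed genes in 34 lists, 358 were measured. Named genes were the 12 largest rises and 10 largest falls, the 8 largest each way that also passed with the covariate, up to 4 members per list by smallest p, a fixed panel of 18 genes, and the largest buffer and interaction differences. Predicted genes (Gm numbers, Rik and LOC names) were skipped in the ranks by size of change. Other list members were named after their values were seen. Glyceraldehyde-3-phosphate dehydrogenase control probe sets were not used; pyruvate carboxylase and transferrin receptor controls took their place. On simulated data 40, 96, 96 and 100% of 50 genes each with changes of 0.25, 0.5, 1 and 2 were recovered for this comparison over 13494 genes, with 9 false calls. The simulated noise was independent between genes, all other genes were left unchanged, and no shift shared by whole arrays was added. In the real comparison 62.1 percent of genes were called and beta-actin differed, so these rates do not give its errors. Nothing in the labels tells whether animals of a group were housed or handled together, so p-values measure the spread between these samples. Animal numbers did not pair the samples. Alternatives were other probe set rules, a filter on the dimmest 40% of genes, quantile normalization, array weights, a trended prior, the replicate block, the groups alone, the beta-actin covariate, leaving out arrays with gullet keratins and leaving out each array.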

Additional observations from a re-analysis of the deposited data

Results flagged for a closer look

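In 4 of 82 groups of values tested, 1 animal lay far from the others by Dixon's criterion, and chance gives about 5% of groups. These were Elf4 at 5.25 in saline replicate 2 (others 6.76 to 8.08), Hyou1 at 10.8 in TSLP replicate 4, Muc5ac at 9.70 in TSLP replicate 7, the array with gullet keratins, and Tnfaip6 at 7.52 in saline replicate 4.

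The effect of 1500 ng TSLP differed between sensitized and naive mice at 6 h by limma's interaction term for Aldh1a3 (2.01), Tnfaip6 (1.33), Aass (1.06), Tnfrsf11b (0.98), Myocd (0.95), Itih1 (-1.05), Kif5c (-0.94), Serpina7 (-0.94), Slco1a5 (-0.92) and Muc16 (-0.87). With the beta-actin covariate Tnfaip6, Itih1 and Kif5c passed, none of the 10 with it on the 6 h arrays alone, and Itih1 alone in a fit on the groups of the comparison.

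The effect in sensitized mice differed between 24 and 6 h for Tert (2.58), Rpp25 (2.49), Erich6 (2.03), Muc16 (2.03), Rab17 (1.98), Tslp (0.58) and Crlf2 (0.27) upward. Downward were Elf4 (-3.06), Adipoq (-2.95), Car3 (-2.90), Scara5 (-2.60), an immunoglobulin kappa variable segment (-2.57), Aldh1a3 (-2.50), Ccl11 (-1.70), Tnfaip6 (-1.35), Mcpt8 (-0.92), Il7r (-0.56), Cish (-0.47) and Il33 (-0.47). Adipoq, an adipocyte hormone, and the immunoglobulin segment did not pass with the covariate (-2.66 and -1.27), nor did Tslp, Crlf2, Aldh1a3, Ccl11, Cish and Il33. With the mean of all probe sets Car3 was at -1.03 (adjusted p = 0.11) and did not pass. Tert was dim, with a mean of 5.28 over all arrays of the series. Beta-actin 3' minus 5' ran in opposite order between saline and TSLP at the 2 times.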

How the results depend on the processing

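The count of 8378 genes between 1500 ng and saline became 14288 over every probe set, 2577 with the beta-actin covariate, 2584 with it on the 6 h arrays alone and 3335 with it without gullet arrays, and 7975 to 8390 without single arrays; the last pair of covariate fits was added after the data were seen. The 48 genes between buffer and saline became 204 over every probe set, 2 with array weights, 0 in the groups alone (1305 with an unadjusted limma p under 0.05), and 268, 9 and 310 in the 3 covariate fits, and 3 to 184 without single arrays. The 8194 genes between 1500 ng and buffer became 13987, and 1042, 1070 and 1446 in the covariate fits (7921 to 8213 without single arrays). The 316 genes between 150 ng and saline became 489 over every probe set, 204 without the dimmest 40% of genes, 0 in the groups alone, and 208 and 8 with the covariate over all arrays and the 6 h arrays (6 to 737). The 6817 genes between 1500 and 150 ng became 11778, and 963, 1180 and 1575 in the covariate fits (6480 to 6833). The 983 genes whose effect differed with sensitization became 315 with array weights, 56 in the groups alone, and 58, 1 and 298 in the covariate fits (300 to 1429). The 8012 genes whose effect differed with time became 13695, 3562 with the covariate and 4134 with it without gullet arrays (7767 to 8061). With the animal number as a replicate block 8367 genes were called; the numbers do not pair the samples, since the correlations of the 8 pairs ran from -0.21 to 0.33 and 1 array correlated best with its own number. Signs turned with the mean of all probe sets for Stat5b (-0.13), Itga5 (0.0792) and Socs3 (0.0482). With the covariate they turned for Ccr3 (-0.0278), Adgre1 (-0.21), Junb (-0.0009), Tslp (0.0136), Muc5ac (0.26) and Socs3 (0.0541). On the 6 h arrays alone they turned for Adgre1 (-0.22), Cd83 (-0.0176), Junb (-0.0391), Rxra (-0.0611), Ccl24 (-0.17) and Muc5ac (0.29), and without gullet arrays for Adgre1 (-0.18), Junb (-0.0085), Tslp (0.0310), Muc5ac (0.32) and Socs3 (0.0511). Ccl24 turned without saline replicate 1 (-0.0326) or TSLP replicate 6 (-0.0088), and single omissions took it up to 0.3887 (without saline replicate 3). Of the values for named genes, 70 lost their call with the covariate, 23 in the groups alone, 12 with array weights and 10 with the mean of all probe sets. With the covariate on the 6 h arrays alone 82 lost their call, which is most of the called values that fit holds. With the covariate and without gullet arrays 65 did. The losses in the groups alone include Il2ra, Spdef, Bub1 and Tslp (adjusted p from 0.0611 to 0.0949). The number of arrays limits the precision, and the cause of these shifts was not tested.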

Other observations

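Genes of 1 complex or cell type did not always move together. C1qa, a chain of complement C1q made by macrophages, was higher after 1500 ng TSLP by 1.51 (SE 0.26) in limma's fit and at 0.25 with the beta-actin covariate, whereas its partner chains C1qb and C1qc were at -0.06 and 0.04. Among cytotoxic cell genes, the receptor Ncr1 rose by 0.71 and perforin (Prf1) by 0.53, while the receptor Klrd1 fell by 0.57 and the transcription factor Eomes fell by 0.57. None of these 4 genes passed with the covariate. Against buffer and without the covariate, 5 of the 8 measured cytotoxic and NK cell genes were higher after 1500 ng TSLP and 1 was lower.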
